A study of Rattus norvegicus with 12 samples.

Results

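The genes of the acetyltransferases p300 (Ep300) and CBP (Crebbp) and of 8 proteins that work with them or beside them were followed on 12 Affymetrix whole-transcript arrays: Ncoa1, Ncoa2, Ncoa3, Cited2, Kat2a, Kat2b, Kat5 and Kat7. They are 10 of the 14506 genes measured, were picked by gene symbol with earlier results of these data known, and each had 1 probe set. Every array held RNA of 1 culture of Sprague Dawley neonatal rat cardiac myocytes, primary heart cells that had been grown with bromodeoxyuridine against fibroblasts. Cultures had been transfected with an siRNA against p300 or with a non-silencing (NS) siRNA, spent 48 h without serum and received 1 µM doxorubicin (Dox) for 8 h or 0 h. This gave p300 siRNA cells at 8 h, p300 siRNA cells at 0 h, NS cells at 8 h and NS cells at 0 h, with 3 arrays each from 3 experiments. Doxorubicin is an anthracycline that poisons topoisomerase II. Treated cultures were also 8 h older than the 0 h cultures, so drug and time cannot be told apart, and the siRNA cultures were compared with no untransfected ones.

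p300 and CBP are closely related nuclear proteins that acetylate histones and other proteins, and that act as a scaffold between DNA-bound transcription factors and the transcription machinery. In the heart p300 is a coactivator of GATA4 and MEF2 factors and takes part in hypertrophic growth. The p160 coactivators (Ncoa1 to Ncoa3) bind nuclear receptors and bring in p300 and CBP, whereas CITED2 binds the domain of p300 and CBP that hypoxia-inducible factors use. KAT2A (GCN5) and KAT2B (PCAF) are alternative catalytic subunits of the SAGA and ATAC complexes. KAT5 (TIP60) is the catalytic subunit of the NuA4/TIP60 complex and acts in DNA damage signalling, and KAT7 (HBO1) acetylates histones around origins of replication and promoters.

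Values are log2 intensities. Those of different probe sets are not comparable as amounts. Where a pair of genes is set against each other within an array, only the change of their difference between groups is read, not its level. The mean log2 intensity of each of the 10 genes over the 12 arrays was above the median of all genes (8.57), from 8.96 for Ncoa3 to 11.46 for Cited2. The number of arrays limits the precision, and standard errors (SE) of 2-group differences had a median of 0.0951 (log2) over all genes. Of the markers of cardiac myocytes 10 of 10 were above the median level, as were 10 of 10 of fibroblasts, 8 of 8 of smooth muscle and pericytes, 4 of 10 of macrophages and leukocytes, and 0 of 7 of endothelium. The labels give over 90% myocytes, and in RNA of whole cultures fewer cells of a type and less RNA per cell cannot be told apart.

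**Figure D1:**
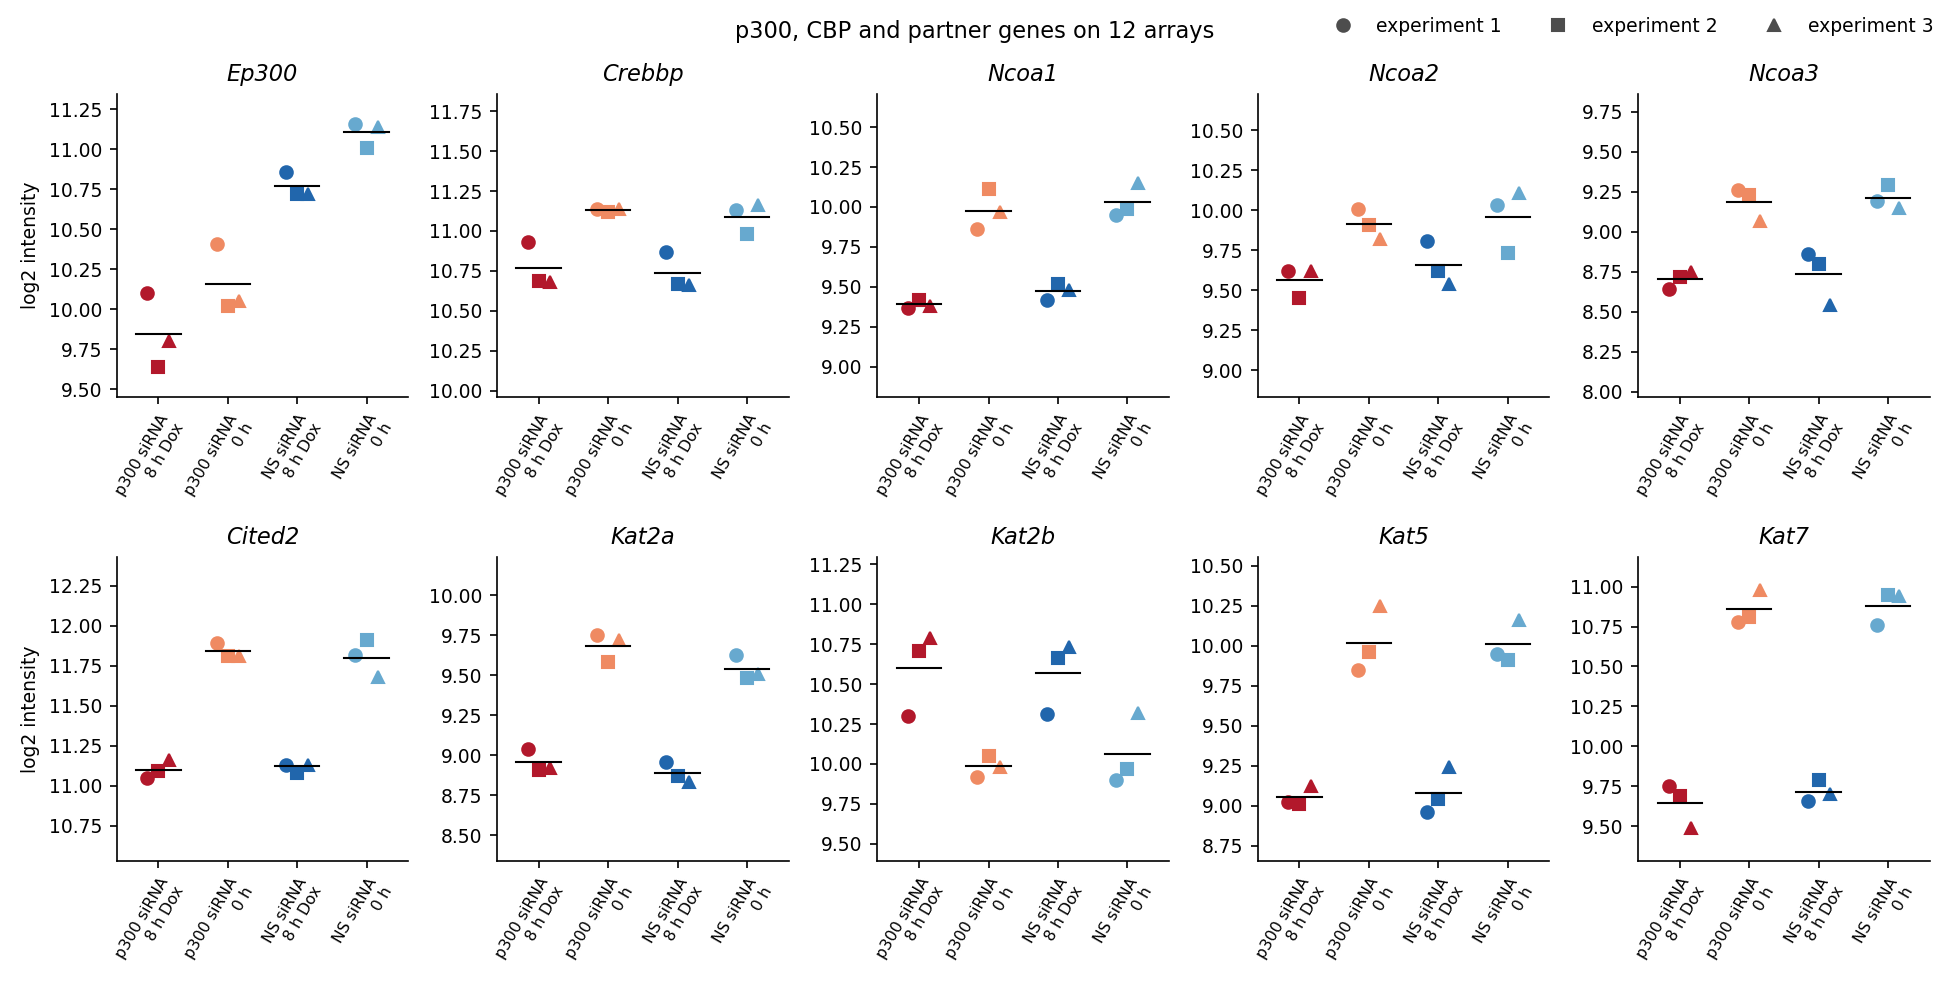
Log2 intensity of the 10 genes on each of the 12 arrays (y axis, each panel spans the same log2 range around its own values; x axis, the 4 groups). Symbols mark the experiment and bars the group mean; Ep300 is low in both p300 siRNA groups, 8 genes lie lower and Kat2b higher at 8 h of Dox, and within each experiment and siRNA Ep300 is lower at 8 h than at 0 h without passing the test.

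The knockdown was seen in Ep300 and in no other of the 10 genes. Ep300 had log2 intensities of 10.10, 9.64 and 9.80 in p300 siRNA cells at 8 h, against 10.86, 10.72 and 10.72 in NS cells at 8 h (experiments 1, 2 and 3, in this order here and below). At 0 h it had 10.41, 10.02 and 10.05 in p300 siRNA cells, against 11.16, 11.01 and 11.14 in NS cells. All 6 p300 siRNA arrays were below all 6 NS arrays, and experiment 1 had the smallest difference between the siRNAs at both times. The mean was 52.9% of the NS level at 8 h (a log2 change of -0.92 with an SE of 0.126, adjusted p = 0.0271) and 51.9% at 0 h (-0.95 with an SE of 0.126, adjusted p = 0.0404; limma with Benjamini-Hochberg adjustment over all genes, as for every adjusted p below). With both times together the change was -0.93 (SE 0.0894, adjusted p = 0.00212). Calls are adjusted p values under 0.05, and 1 of the 10 genes was called at 8 h, where 0.0483% of all genes were, 1 at 0 h, where 0.0207% were, and 1 with both times together, where 1.25% were. The call with both times together was lost without experiment 2 (-0.88, adjusted p = 0.348) and without experiment 3 (-0.90, adjusted p = 0.168), settings under which 0 of 14506 genes were called. The call at 8 h was lost in 12 of 26 alternatives and that at 0 h in 13 of 26, with the change between -1.05 and -0.82 at 8 h and between -1.07 and -0.87 at 0 h. Among these settings, 0 of 14506 genes were called at either time without experiment 2, without experiment 3 or with only the groups compared. With the experiment as a block the adjusted p was 4.48e-05 at 8 h and 2.71e-05 at 0 h.

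Crebbp, the paralog, showed no such step. It had 10.93, 10.69 and 10.68 in p300 siRNA cells at 8 h and 10.87, 10.67 and 10.66 in NS cells at 8 h. At 0 h it had 11.14, 11.12 and 11.14 in p300 siRNA cells and 11.13, 10.98 and 11.16 in NS cells. The groups overlapped at both times, and within 1 experiment the siRNA difference never passed 0.134 on the log2 scale. With both times together the change was 0.04 (95% interval -0.102 to 0.173, adjusted p = 0.887). The difference between Ep300 and Crebbp within an array is not moved by a shift of the whole array. Its change with the p300 siRNA was -0.97 (p = 0.005, two-sided exact permutation of the siRNA within each time, 400 relabelings, the smallest p they can give). The relabelings ignored the experiment. This pair was chosen after the values were seen, with the fall of Ep300 already known, so the p is no separate support. The level of this difference ran from -1.05 to -0.83 in p300 siRNA cells at 8 h and from -0.0127 to 0.0594 in NS cells at 8 h. At 0 h it ran from -1.10 to -0.73 in p300 siRNA cells and from -0.0152 to 0.0322 in NS cells.

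The other 8 genes likewise gave no siRNA call in either time or in both together. Over all 9 genes beside Ep300 the changes with both times together lay between -0.07 and 0.11, with 95% intervals between -0.252 and 0.232 and a lowest adjusted p of 0.507. That lowest value was of Kat2a (0.11, SE 0.0583), which was higher with the p300 siRNA in 6 of 6 differences within an experiment and time, from 0.0441 to 0.207. Its change was 0.07 at 8 h (adjusted p = 0.901) and 0.14 at 0 h (adjusted p = 0.845), and the groups overlapped at both times. The number of these 9 genes with an unadjusted p under 0.05 was 0 at 8 h, 0 at 0 h and 0 with both times together, and 0 of 9 were called with the experiment as a block, where 3.14% of all genes were at 8 h, 2.69% at 0 h and 9.51% with both times together. The sign of the change of Crebbp, Ncoa3, Cited2, Kat2b and Kat5 turned when single arrays or experiments were left out. Of the 10 genes, 1 had groups that did not overlap at 8 h, where 11.1% of all genes had, and 1 at 0 h, where 13% had, and both times it was Ep300. Markers of macrophages and leukocytes also moved with the siRNA: 3 of 10 fell with both times together (8 with the experiment as a block), and their summed intensity ran from 7126 to 9198 in p300 siRNA cells at 8 h, against 8805 to 11475 in NS cells at 8 h. At 0 h it ran from 6204 to 9416 in p300 siRNA cells, against 9081 to 11134 in NS cells. Of the fibroblast markers 0 of 10 were called with both times together (4 at an unadjusted p under 0.05, and 5 lower with the experiment as a block). Of the smooth muscle and pericyte markers 1 of 8 fell (2 lower and 1 higher with the block), of the endothelial markers 0 of 7 were called (1 lower with the block, 2 at an unadjusted p under 0.05), and of the myocyte markers 0 of 10 (0 with the block, 0 at an unadjusted p under 0.05). The part of these cells in the Ep300 value was not tested.

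**Figure D2:**
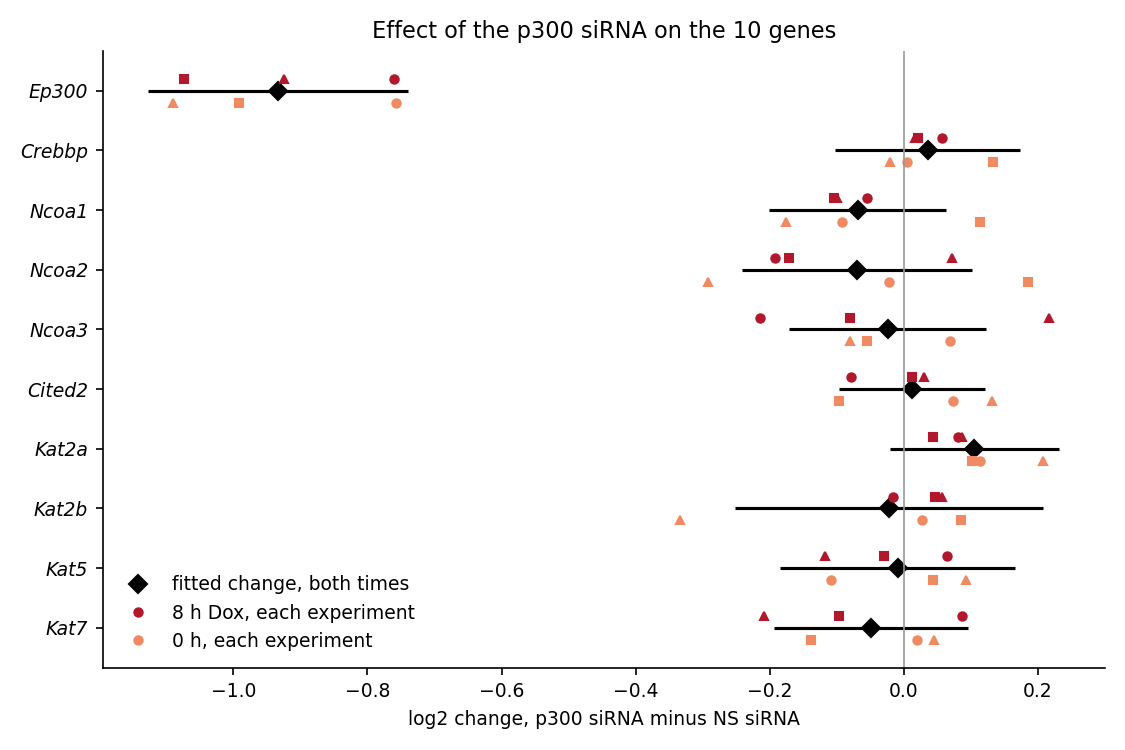
Log2 change with the p300 siRNA (x axis, p300 siRNA minus NS) of each gene (y axis). Diamonds are the change with both times together with its 95% interval, coloured symbols the single experiments (circle 1, square 2, triangle 3) at 8 h and 0 h; Ep300 lies at -0.93, and the intervals of the other 9 genes all include 0.

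Doxorubicin lowered most of these genes and raised 1. In p300 siRNA cells 9 of the 10 genes were called, 8 lower and 1 higher, where 31.4% of all genes were called, 17.5% lower and 13.9% higher. In NS cells 8 of the 10 were called, 7 lower and 1 higher, where 27.5% of all genes were called, 16.4% lower and 11.1% higher. All 10 genes were above the median level. With genes under the 25th percentile of level left out, 2616 of 10879 genes fell and 1962 rose in p300 siRNA cells. In NS cells 2449 fell and 1660 rose. The 10 genes then had 9 calls in p300 siRNA cells and 8 in NS cells. They were chosen with earlier results of these data known, so these contrasts with all genes are a description and no test. The median change of the 10 genes was -0.53 in p300 siRNA cells and -0.52 in NS cells, against medians over all genes of 0.04 and 0.04. In p300 siRNA cells 9 of 10 genes had 8 h arrays that did not overlap the 0 h arrays, where 43.2% of all genes did, and in NS cells 8 of 10, where 41.3% did. With the experiment as a block all 10 genes were called in p300 siRNA cells, where 45.8% of all genes were, and all 10 in NS cells, where 43.5% were. When the arrays were centred on the median of the genes tested, a scaling added after the data were seen, all 10 genes kept their direction. The calls of all genes then split into 4344 higher and 1991 lower in p300 siRNA cells (2017 and 2543 as reported) and 3800 and 1832 in NS cells (1617 and 2375). Without experiment 2, 5 of the 10 genes were called in p300 siRNA cells and 5 in NS cells. Of all 14506 genes 1544 then fell and 725 rose in p300 siRNA cells, and 1327 and 455 in NS cells. Without experiment 3, 6 of the 10 genes were called in p300 siRNA cells and 6 in NS cells. Of all genes 1573 then fell and 786 rose in p300 siRNA cells, and 1330 and 607 in NS cells. Of the endothelial markers 2 of 7 fell with each siRNA, and their summed intensity ran from 1190 to 1242 in p300 siRNA cells at 8 h, against 1476 to 1492 in p300 siRNA cells at 0 h. The NS cells ranged from 1257 to 1413 at 8 h, against 1596 to 1675 at 0 h, with 0 of the 7 above the median level of all genes. Of the smooth muscle and pericyte markers 2 of 8 fell with each siRNA. The 10 fibroblast markers gave 1 fall and 1 rise with each siRNA. Among the 10 macrophage and leukocyte markers 2 fell and 1 rose in p300 siRNA cells, and 1 fell and 0 rose in NS cells. Of the myocyte markers 0 of 10 were called with either siRNA (3 higher in p300 siRNA cells and 1 in NS cells with the experiment as a block, 1 at an unadjusted p under 0.05 with each). The summed intensity of the myocyte markers overlapped between times, at 97931 to 110770 in p300 siRNA cells at 8 h, against 96123 to 110292 in p300 siRNA cells at 0 h. The part of other cell types in these changes was not tested.

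**Figure D3:**
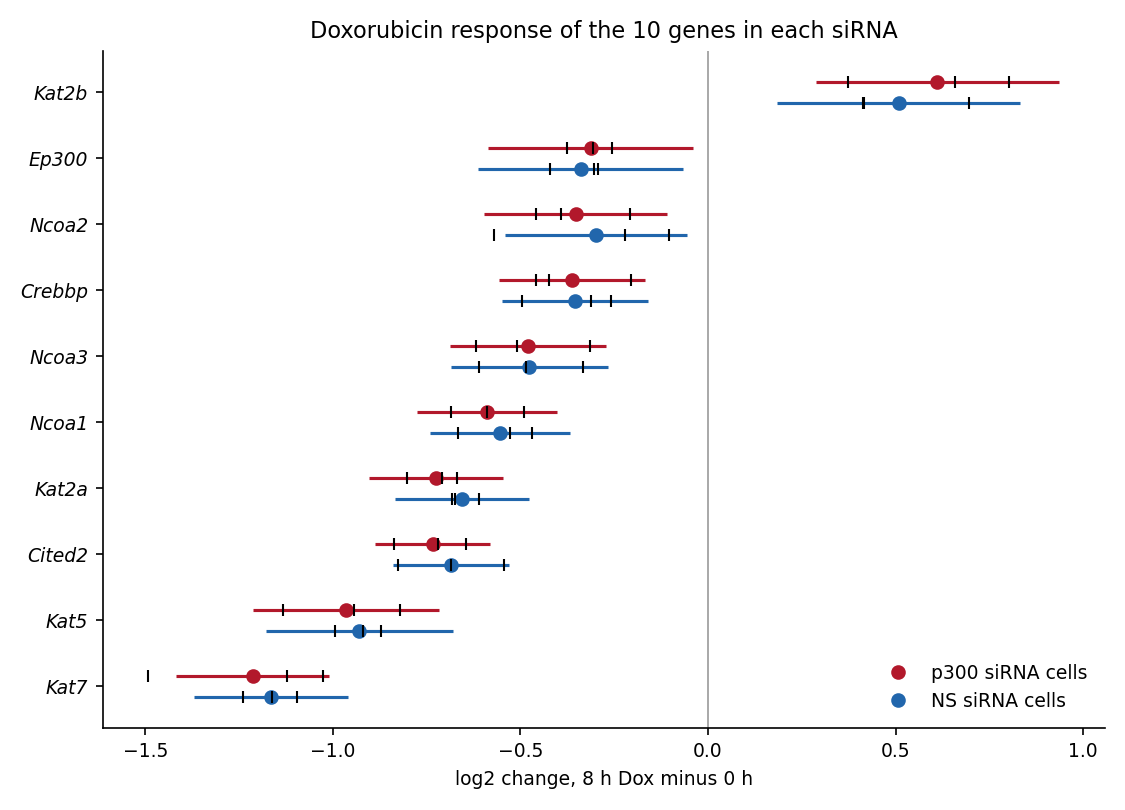
Log2 change after 8 h of Dox (x axis, 8 h minus 0 h) of each gene (y axis) in p300 siRNA cells and NS cells. Dots are the change with its 95% interval and ticks the 3 experiments; Kat7 and Kat5 fell most, Kat2b alone rose, and the values of both siRNAs lie close together for each gene.

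Kat7 and Kat5 fell furthest of the 10 genes. Kat7 had 9.75, 9.69 and 9.49 in p300 siRNA cells at 8 h, against 10.78, 10.81 and 10.98 in p300 siRNA cells at 0 h. In NS cells it had 9.66, 9.79 and 9.70 at 8 h, against 10.76, 10.95 and 10.94 at 0 h. The 8 h and 0 h arrays were far apart and did not overlap, and Kat7 fell to 43.1% of its 0 h level in p300 siRNA cells (-1.21, SE 0.0947, adjusted p = 2.31e-06) and to 44.6% in NS cells (-1.17, SE 0.0947, adjusted p = 4.06e-06). Kat5 had 9.02, 9.01 and 9.12 in p300 siRNA cells at 8 h, against 9.85, 9.96 and 10.25 in p300 siRNA cells at 0 h. Its NS values were 8.96, 9.04 and 9.24 at 8 h, against 9.95, 9.91 and 10.16 at 0 h. The 8 h and 0 h arrays did not overlap, and Kat5 fell to 51.2% in p300 siRNA cells (-0.97, SE 0.115, adjusted p = 5.16e-05) and to 52.5% in NS cells (-0.93, SE 0.115, adjusted p = 8.12e-05). Both calls of both genes held in all 26 alternatives, with changes between -1.31 and -1.06 for Kat7 and between -1.05 and -0.83 for Kat5.

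The bases before the start of 4 genes are shown because these genes moved in opposite directions, Kat7, Kat5 and Cited2 down and Kat2b up. They are the 250 bases before the annotated start, from RefSeq on GRCr8, written 5′ to 3′ on the gene's strand, with matches to the ETS motif CCGGAAGT and the E box CACGTG in capitals. For Kat7 the window of the outermost of 2 annotated starts is given.
Kat7, chr10:80752388-80752637, minus strand: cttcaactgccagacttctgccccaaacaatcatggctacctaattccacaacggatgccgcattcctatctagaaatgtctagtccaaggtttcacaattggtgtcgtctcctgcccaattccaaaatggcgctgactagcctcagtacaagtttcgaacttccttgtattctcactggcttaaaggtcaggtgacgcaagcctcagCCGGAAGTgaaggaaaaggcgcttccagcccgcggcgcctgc
Kat5, chr1:212332394-212332643, minus strand: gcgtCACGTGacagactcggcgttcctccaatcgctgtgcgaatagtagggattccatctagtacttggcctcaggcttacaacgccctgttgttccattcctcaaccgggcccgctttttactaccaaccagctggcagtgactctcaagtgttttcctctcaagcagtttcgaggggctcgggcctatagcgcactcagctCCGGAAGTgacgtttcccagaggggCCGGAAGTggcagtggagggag
Cited2, chr1:14132053-14132302, plus strand: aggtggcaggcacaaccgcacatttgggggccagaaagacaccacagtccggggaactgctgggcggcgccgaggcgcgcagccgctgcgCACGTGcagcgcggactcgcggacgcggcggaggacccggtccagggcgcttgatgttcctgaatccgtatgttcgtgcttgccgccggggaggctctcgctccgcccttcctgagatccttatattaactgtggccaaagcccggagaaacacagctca
Kat2b, chr9:6798895-6799144, plus strand: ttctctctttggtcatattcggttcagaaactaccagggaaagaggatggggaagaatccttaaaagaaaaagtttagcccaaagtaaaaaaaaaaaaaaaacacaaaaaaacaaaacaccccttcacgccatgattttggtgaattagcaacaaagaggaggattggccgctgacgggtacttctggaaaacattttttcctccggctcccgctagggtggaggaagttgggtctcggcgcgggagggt
Such windows were found for 7 of the 10 genes, and for Kat2a, Ncoa2 and Ncoa3 none was used. The ETS motif, searched on both strands, was in the windows of Kat7 (bases 42 to 35 before the start shown, and not in the window of its other start) and Kat5 (bases 47 to 40 and 22 to 15), and in 3.1% of all 33469 windows. The E box was in Kat5 (bases 246 to 241) and Cited2 (bases 160 to 155), and in 5.59% of all windows. The window of Kat5 also held the CRE core TGACGT, present in 6.95% of all windows, and this match shares 1 base with the ETS match farther from the start. Of the wider motifs, CCAAT was in windows of Kat2b, Kat5 and Kat7 (34% of all windows), the GC box GGGCGG in windows of Cited2, Crebbp and Ncoa1 and in the window of the other Kat7 start, not in the one shown (30.5%), and TATAAA in none of the 7 genes (12.9%). The GC share was 44.4% for Kat2b, 51.2% for Kat7 (59.2% at its other start), 56.8% for Kat5 and 65.2% for Cited2. It was 72.8% for Ep300, 82% for Crebbp and 82.8% for Ncoa1, and the median of all windows was 51.2%. The motifs were chosen after the sequences were seen, and a match says only that these letters are there.

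Kat2a and Kat2b, which encode alternative subunits of the same complexes, went in opposite directions. Kat2a had 9.04, 8.91 and 8.92 in p300 siRNA cells at 8 h, against 9.75, 9.58 and 9.72 in p300 siRNA cells at 0 h. In NS cells it had 8.96, 8.87 and 8.83 at 8 h, against 9.63, 9.48 and 9.51 at 0 h. It fell to 60.5% in p300 siRNA cells (-0.73, SE 0.0825, adjusted p = 3.67e-05) and to 63.5% in NS cells (-0.66, SE 0.0825, adjusted p = 9.44e-05), with no overlap between times and with both calls kept in all 26 alternatives. Kat2b had 10.30, 10.71 and 10.79 in p300 siRNA cells at 8 h, against 9.92, 10.05 and 9.98 in p300 siRNA cells at 0 h. Its NS values were 10.31, 10.66 and 10.73 at 8 h, against 9.90, 9.97 and 10.32 at 0 h. Experiment 1 had the lowest Kat2b at both times, and in NS cells its 8 h array was below the 0 h array of experiment 3, so those groups overlapped. Kat2b rose to 152.8% in p300 siRNA cells (0.61, SE 0.150, adjusted p = 0.00761) and to 142.2% in NS cells (0.51, SE 0.150, adjusted p = 0.0234), and was higher in 3 of 3 experiments with each siRNA. With the experiment as a block the adjusted p of Kat2b was 3.35e-05 in p300 siRNA cells and 2.19e-04 in NS cells. In the reported model, which leaves the experiment out, its call in p300 siRNA cells was lost without experiment 2 (0.59, adjusted p = 0.116) or 3 (0.52, adjusted p = 0.0681). In NS cells it was lost without experiment 2 (0.41, adjusted p = 0.262) or 3 (0.56, adjusted p = 0.0607), and without any of 4 single arrays (0.43 to 0.46, adjusted p 0.0777 to 0.0924), which were the NS 8 h arrays of experiments 2 and 3 and the NS 0 h arrays of experiments 1 and 2. The difference Kat2b minus Kat2a within an array ran from 1.26 to 1.87 in p300 siRNA cells at 8 h, against 0.176 to 0.471 in p300 siRNA cells at 0 h. It ran from 1.35 to 1.90 in NS cells at 8 h, against 0.263 to 0.805 in NS cells at 0 h. Its change with Dox was 1.25 (p = 0.005, two-sided exact permutation of the time within each siRNA, 400 relabelings, the smallest p they can give). The relabelings ignored the experiment. This pair was chosen after the values were seen, with the opposite directions already known, so the p is no separate support.

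Cited2 had 11.05, 11.09 and 11.16 in p300 siRNA cells at 8 h, against 11.89, 11.81 and 11.81 in p300 siRNA cells at 0 h. In NS cells it had 11.13, 11.08 and 11.13 at 8 h, against 11.82, 11.91 and 11.68 at 0 h. The arrays of a group lay close together and the times did not overlap. Cited2, whose product competes for p300 and CBP, fell to 60.1% in p300 siRNA cells (-0.73, SE 0.0711, adjusted p = 1.13e-05) and to 62.2% in NS cells (-0.69, SE 0.0711, adjusted p = 2.22e-05), and both calls held in all 26 alternatives.

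Of the p160 coactivator genes, Ncoa1 and Ncoa3 fell with each siRNA, and Ncoa2 passed the test in p300 siRNA cells but not in NS cells, a difference between siRNAs that did not itself pass. Ncoa1 (SRC-1) had 9.37, 9.42 and 9.38 in p300 siRNA cells at 8 h, against 9.86, 10.11 and 9.97 in p300 siRNA cells at 0 h. Its NS values were 9.42, 9.52 and 9.48 at 8 h, against 9.95, 9.99 and 10.15 at 0 h. It fell to 66.5% in p300 siRNA cells (-0.59, SE 0.0863, adjusted p = 2.49e-04) and to 68.1% in NS cells (-0.55, SE 0.0863, adjusted p = 4.66e-04), with no overlap and with both calls kept in all 26 alternatives. Ncoa3 (SRC-3) had 8.64, 8.72 and 8.75 in p300 siRNA cells at 8 h, against 9.26, 9.23 and 9.07 in p300 siRNA cells at 0 h. In NS cells it had 8.86, 8.80 and 8.54 at 8 h, against 9.19, 9.29 and 9.15 at 0 h. It fell by 0.48 with each siRNA on the log2 scale (SE 0.0963, adjusted p = 0.00219 in p300 siRNA cells and 0.00273 in NS cells), with no overlap. With the experiment as a block the adjusted p of Ncoa3 was 1.67e-04 in p300 siRNA cells and 2.13e-04 in NS cells. In the reported model both calls were lost without experiment 2 (-0.47 in p300 siRNA cells, adjusted p = 0.0580, and -0.47 in NS cells, adjusted p = 0.0642). Ncoa2 (TIF2) had 9.62, 9.45 and 9.62 in p300 siRNA cells at 8 h, against 10.01, 9.91 and 9.82 in p300 siRNA cells at 0 h. Its NS values were 9.81, 9.62 and 9.54 at 8 h, against 10.03, 9.73 and 10.11 at 0 h, and there the times overlapped. Its change was -0.35 in p300 siRNA cells (SE 0.112, adjusted p = 0.0299, and 0.00321 with the experiment as a block). In NS cells its change was -0.30 (SE 0.112, adjusted p = 0.0667, and 0.0105 with the experiment as a block). The call in p300 siRNA cells was lost in 9 of 26 alternatives (-0.43 to -0.25, adjusted p 0.0538 to 0.165), among them the leaving out of any 1 experiment.

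Ep300, Crebbp and Ncoa2 had the smallest values of the change with the drug among the 10 genes, and these were not tested against the others. Ep300 changed by -0.31 in p300 siRNA cells (SE 0.126, adjusted p = 0.0783) and by -0.34 in NS cells (SE 0.126, adjusted p = 0.0641), and did not pass with either siRNA. It was lower at 8 h in 3 of 3 experiments with each siRNA, by -0.38 to -0.26 in p300 siRNA cells and -0.42 to -0.29 in NS cells, and with the experiment as a block it passed with both (adjusted p = 0.00249 in p300 siRNA cells and 0.00153 in NS cells). Without experiment 1 it also passed (adjusted p = 0.0248 in p300 siRNA cells and 0.0178 in NS cells). Crebbp fell by 0.36 on the log2 scale in p300 siRNA cells (SE 0.0897, adjusted p = 0.00797) and by 0.36 in NS cells (SE 0.0897, adjusted p = 0.0104). The Crebbp times did not overlap with either siRNA. With the experiment as a block the adjusted p of Crebbp was 2.89e-04 in p300 siRNA cells and 4.02e-04 in NS cells. In the reported model its calls were lost without experiment 2 (-0.33, adjusted p = 0.110 in p300 siRNA cells, and -0.38, adjusted p = 0.0879 in NS cells). They were also lost without experiment 3 (-0.31, adjusted p = 0.118 in p300 siRNA cells, and -0.29, adjusted p = 0.171 in NS cells).

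No member's drug response was shown to depend on the siRNA. The difference between the responses, p300 siRNA minus NS, lay between -0.07 (Kat2a, SE 0.117) and 0.10 (Kat2b, SE 0.212), and for Ep300 it was 0.03 (SE 0.179). limma called 0 of 14506 genes in this comparison (0%), with adjusted p = 0.9998 for all 10 genes, and 0 of the 10 had an unadjusted p under 0.05. The 95% interval was -0.267 to 0.169 for Cited2, the narrowest of the 10, and -0.356 to 0.563 for Kat2b, the widest. With the experiment as a block 0 were called as well.

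Genes that act with these enzymes were counted on 8 lists with 91 measured genes. The lists were chosen with earlier results of these data known, so their counts beside those of all genes are a description and no separate support. After Dox 45 of the 91 fell and 10 rose in p300 siRNA cells, where 17.5% of all genes fell and 13.9% rose. In NS cells 44 fell and 4 rose, where 16.4% of all genes fell and 11.1% rose. With genes under the 25th percentile of level left out, 45 fell and 10 rose in p300 siRNA cells, and 46 and 6 in NS cells. Of all 10879 genes then left, 2616 fell and 1962 rose in p300 siRNA cells, and 2449 and 1660 in NS cells. With the p300 siRNA, both times together, 0 of the 91 fell and 0 rose, where 1.25% of all genes were called. With the experiment as a block 1 fell and 3 rose, where 9.51% of all genes were called. Without experiment 2 the drug counts were 27 falls and 3 rises in p300 siRNA cells and 20 falls and 0 rises in NS cells, and without experiment 3 they were 36 and 4 in p300 siRNA cells and 27 and 1 in NS cells. The counts of all genes also fell without these experiments, to 1544 falls and 725 rises in p300 siRNA cells and 1327 and 455 in NS cells without experiment 2, against 2543 and 2017 in p300 siRNA cells and 2375 and 1617 in NS cells with all arrays. The median change in p300 siRNA cells was -0.65 for the nuclear receptor coactivators, -0.37 for the SAGA and ATAC subunits, -0.37 for the NuA4/TIP60 subunits, -0.33 for the other acetyltransferases and -0.31 for the readers. It was -0.29 for the docking factors, -0.14 for the HBO1 and MOZ subunits and 0.02 for the deacetylases, against 0.04 for all genes. In NS cells the medians of the 8 lists ran from -0.56 for the nuclear receptor coactivators to 0.07 for the deacetylases, against 0.04 for all genes.

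The partners of Kat2a and Kat2b in SAGA and ATAC fell in 9 of 15 cases in p300 siRNA cells, where 17.5% of all genes fell and 13.9% rose, and in 9 of 15 in NS cells, where 16.4% fell and 11.1% rose (in NS cells 3 without experiment 2 and 5 without experiment 3), and 1 rose with each. The ATAC subunit Mbip changed by -1.21 in p300 siRNA cells and -1.05 in NS cells (SE 0.102), and the SAGA subunit Taf5l1 by -0.78 and -0.70. The 1 rise was of Eny2, a subunit of the SAGA deubiquitinase module (0.41 in p300 siRNA cells, lost without experiment 3, 0.39, adjusted p = 0.0561; 0.33 in NS cells, lost without experiment 2, 0.26, adjusted p = 0.186, and without experiment 3, 0.37, adjusted p = 0.0706). The NuA4/TIP60 partners of Kat5 fell in 8 of 13 cases with each siRNA, among them the bromodomain subunit Brd8 (-0.97 in p300 siRNA cells and -0.86 in NS cells, SE 0.0765) and Vps72 (-0.88 and -0.71). Of the NuA4/TIP60 partners 1 rose in p300 siRNA cells (2 with the experiment as a block) and 0 in NS cells. The counts of falls were 4 in p300 siRNA cells and 3 in NS cells without experiment 2, and again 4 and 3 without experiment 3. They were 5 without the p300 siRNA 8 h array of experiment 2, and in NS cells 5 without the 8 h array of experiment 3 or the 0 h array of experiment 1 or 3, and 5 with each siRNA when arrays were centred on the median of the genes tested. Of the HBO1 and MOZ partners of Kat7 2 of 6 fell with each siRNA, Ing5 (-0.85 in p300 siRNA cells and -0.81 in NS cells) and Ing4 (-0.24 and -0.40). Ing4 lost its call in p300 siRNA cells without any 1 experiment (-0.26 to -0.23, adjusted p 0.0630 to 0.203) or without 5 of the 6 single p300 siRNA arrays, all but the 0 h array of experiment 1 (-0.27 to -0.21, adjusted p 0.0502 to 0.102), when arrays were centred on the median of the genes tested (-0.14, adjusted p = 0.159) or quantile normalised (-0.15, adjusted p = 0.165), and in NS cells without experiment 2 (-0.34, adjusted p = 0.0788).

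**Figure D4:**
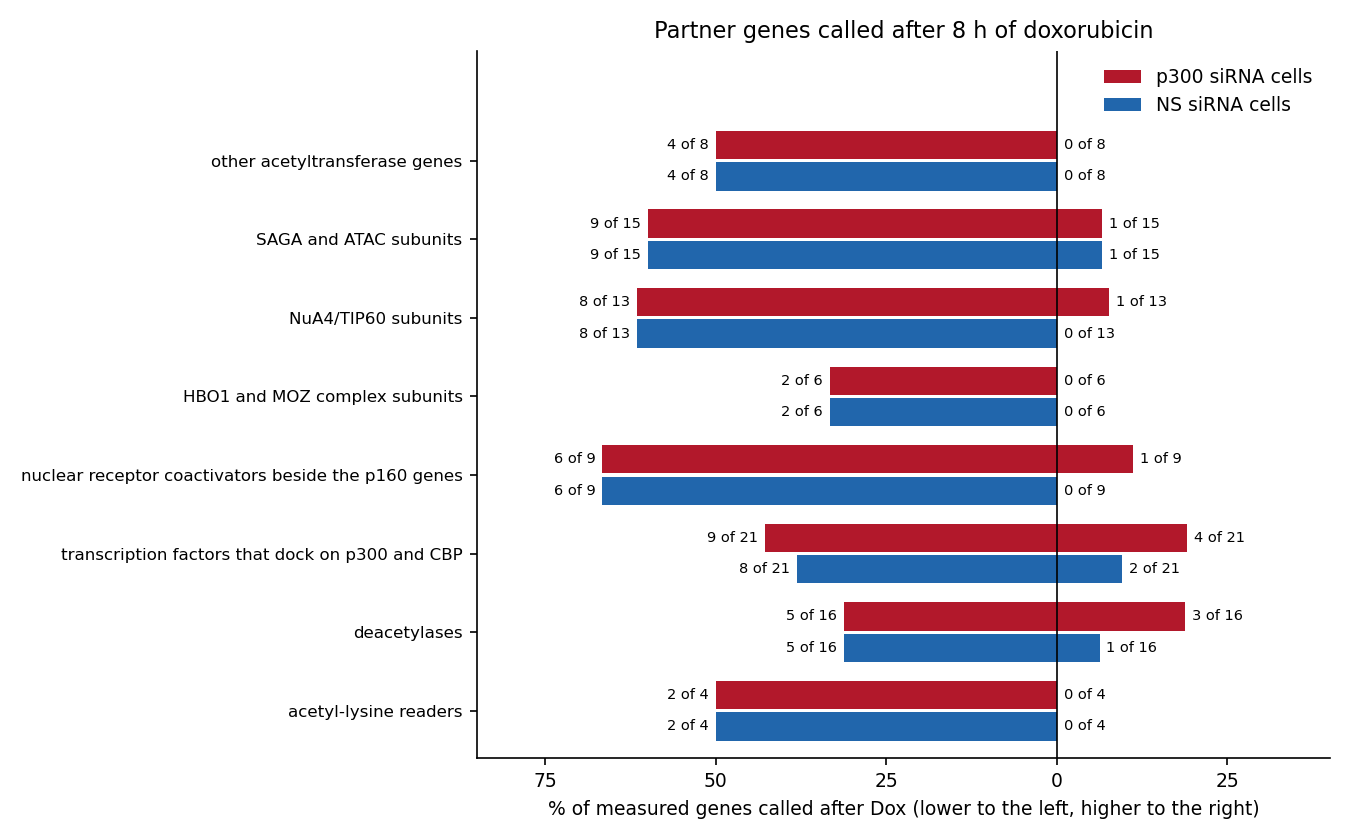
Share of the measured genes of each list that was called after 8 h of Dox (x axis, % of genes, lower to the left and higher to the right, with the counts written beside the bars) in p300 siRNA cells and NS cells. Falls outnumber rises in all 8 lists with both siRNAs, but not for the deacetylases once arrays are centred on the median of the genes tested.

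Of the other acetyltransferase genes 4 of 8 fell with each siRNA and 0 rose (of all genes 17.5% fell and 13.9% rose in p300 siRNA cells, and 16.4% and 11.1% in NS cells), with Nat10, an RNA and protein acetyltransferase, at -0.62 in p300 siRNA cells and -0.54 in NS cells. This count was 1 without experiment 2 in p300 siRNA cells and in NS cells, and in NS cells 1 without experiment 3 and 2 without the 8 h array of experiment 3 or the 0 h array of experiment 1. Gtf3c4 changed by -0.68 in p300 siRNA cells and -0.60 in NS cells, and Kat6a by -0.57 and -0.39. The calls of Gtf3c4 and Kat6a with each siRNA were lost without experiment 2 (adjusted p 0.0881 to 0.140). Of the nuclear receptor coactivators beside the p160 genes 6 of 9 fell with each siRNA. Ppargc1b, a coactivator of mitochondrial genes, changed by -1.39 in p300 siRNA cells and -1.35 in NS cells (SE 0.122), and Ncoa6 by -0.83 and -0.79. Of the transcription factors that dock on p300 and CBP 9 of 21 fell in p300 siRNA cells (14 with the experiment as a block) and 8 of 21 in NS cells. Gata4, the cardiac factor that p300 acetylates, changed by -1.50 in p300 siRNA cells and -1.41 in NS cells (SE 0.0790), Jun by -0.83 and -1.13, and the NF-kB subunit Rela by -0.98 and -0.70. In p300 siRNA cells 4 of the 21 rose (1 without experiment 2) and in NS cells 2 (4 with the experiment as a block, 0 without experiment 2, and 1 without experiment 1, experiment 3, the 8 h array of experiment 1 or the 0 h array of experiment 1 or 3). Crem, a factor of the CREB family, rose with each siRNA (0.71 in p300 siRNA cells and 0.52 in NS cells), and its call in NS cells was lost without experiment 2 (0.49, adjusted p = 0.0652).

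Of the deacetylases 5 of 16 fell with each siRNA (of all genes 17.5% fell in p300 siRNA cells and 16.4% in NS cells), among them Sirt5 (-1.29 in p300 siRNA cells and -0.95 in NS cells). In p300 siRNA cells this count was 3 without experiment 2. In NS cells it was 1 without experiment 2, 2 without experiment 3, without the 8 h array of experiment 2 or without the 0 h array of experiment 1, and 3 without the 8 h array of experiment 3. Rises numbered 3 in p300 siRNA cells (1 without experiment 2 or 3), where 13.9% of all genes rose. In NS cells 1 rose, where 11.1% of all genes did, and this was Hdac1 (0.47 in p300 siRNA cells and 0.39 in NS cells). The NS call of Hdac1 was lost without experiment 2 (0.38, adjusted p = 0.0884) or 3 (0.39, adjusted p = 0.119), and without the 8 h array of experiment 2 or the 0 h array of experiment 1 or 3 (0.29 to 0.36, adjusted p 0.0656 to 0.0860). The NS count of rises was 4 with the experiment as a block, 2 without experiment 1, and 0 without experiment 2, without experiment 3 or without the 0 h array of experiment 3. With arrays centred on the median of the genes tested, 5 rose and 5 fell in p300 siRNA cells and 5 rose and 2 fell in NS cells. Of all 14506 genes 4344 then rose and 1991 fell in p300 siRNA cells, and 3800 rose and 1832 fell in NS cells. Of the acetyl-lysine readers 2 of 4 fell with each siRNA, Brd7 (-0.53 in p300 siRNA cells and -0.56 in NS cells) and Brd2 (-0.48 and -0.36), and the NS call of Brd2 was lost without experiment 2 (-0.34, adjusted p = 0.0884). In the comparison of the drug responses 0 genes of these lists were called. Several calls of a rise in p300 siRNA cells were not made in NS cells, with no difference between the siRNAs called. Among them was E2f1 (0.47), lost without experiment 2 (0.34, adjusted p = 0.189). Hdac2 (0.33) was lost without experiment 2 or 3 (adjusted p = 0.0948 and 0.0864). Hdac10 (0.22) was lost without any 1 experiment (0.19 to 0.26, adjusted p 0.123 to 0.236). Ruvbl1, a NuA4/TIP60 subunit (0.34), was lost in 9 of 26 alternatives (adjusted p 0.0606 to 0.277). Ncoa4, a nuclear receptor coactivator (0.27), was lost in 11 of 26 (adjusted p 0.05003 to 0.234). The last 2 were both lost, among others, without experiment 2 or 3. In NS cells Ruvbl1 changed by 0.17 (adjusted p = 0.304) and Ncoa4 by 0.20 (adjusted p = 0.129, and 0.00422 with the experiment as a block).

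For each gene the most similar of all genes was sought by Pearson correlation of log2 values over the 12 arrays, which share the drug and siRNA groups, so the values describe these groups and carry no p. For Ep300 these were Igfbp5 (0.971), Gas7 (0.968) and Map4k4 (0.958), whose changes with the p300 siRNA, both times together, were -0.55, -0.53 and -0.69, values that the choice by likeness to Ep300 favours. For Crebbp they were Tnrc6b (0.984), Srrm2 (0.982) and Zfp672 (0.979). For Kat7 they were Mtmr3 (0.995), Nup62 (0.995) and Gtf2ird1 (0.994), for Kat5 Taf5l1 (0.993), Rab20 (0.991) and Rhobtb2 (0.990), and for Kat2a Plekhg2 (0.998), Brd8 (0.991) and Rce1 (0.991). For Kat2b, the gene that rose, they were Agtpbp1 (0.983), Ccdc90b (0.978) and Cep15 (0.975), and for Cited2 Rcan1 (0.991), Ccnf (0.990) and Cdc42ep1 (0.989). Ncoa1 was closest to Btrc (0.986), Ncoa2 to Extl3 (0.957) and Ncoa3 to Palmd (0.970).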

How the data were processed

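Total RNA of 12 cultures was measured on Affymetrix arrays, and groups and experiment numbers were read from the titles and treatment labels. Each deposited value is a linear intensity of a probe set (8.05 to 25315), made with Affymetrix Expression Console 1.1 and RMA per the submitters' processing notes. How they came to be linear is not given in the sources used here. RMA summarises the probes of a gene and normalises between arrays, so a change is relative to the other transcripts of an array. The medians of log2 intensity lay between 7.73 and 7.80 on the 12 arrays.

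Log2 was taken of the values of all 29214 probe sets. The platform annotation gave 1 symbol to 15310 of them, several to 323 and none to 13581; symbols were brought up to date through Entrez identifiers with a RefSeq gene table (GRCr8, 14480 genes matched), and for the 527 genes with several probe sets the brightest over all arrays was kept. No filter on level was applied, which left 14506 genes.

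limma 3.58.1 (R 4.3.3) was used to fit 4 group means (lmFit, then eBayes with trend, two-sided, on 8 residual degrees of freedom), with Benjamini-Hochberg adjustment within each of the 6 comparisons. Replicate numbers name the 3 experiments: deviations from the group mean correlated at a median of 0.504 (0.172 to 0.689) in the 18 pairs that share a number across groups and at -0.271 in other pairs, and for 12 of 12 arrays the nearest number was its own. The model without the experiment is reported, and blocked values are printed beside the calls of the 10 genes that they change and the partner list counts that they move by over 1.5 times. The fit was tested on simulated data in which the arrays were independent. That test therefore does not cover the correlation within an experiment. Alternatives were the experiment as a fixed or random block, the groups compared alone, dim genes left out (25th percentile), 3 other scalings, eBayes without a trend or robust, the mean of a gene's probe sets, all probe sets, and each experiment or array left out.

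The 10 genes, the 8 partner lists and the marker lists were chosen with earlier results of these data known. Of each list up to 3 called genes per direction, the largest changes, were eligible to be named, and for each of the 10 genes the 3 most similar. Promoter windows are from RefSeq (GRCr8). Figures were drawn with matplotlib 3.10.9.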

Additional observations from a re-analysis of the deposited data

How the results depend on the processing

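The experiment as a block changed, beside the calls given above for Ep300 and Ncoa2 after Dox and the counts given beside the lists, no other call of the 10 genes; the counts of the 10 genes called with that block were 10 after Dox in p300 siRNA cells and 10 in NS cells, against 9 and 8. The counts of the 10 genes called with the p300 siRNA were 0 at 8 h and 0 at 0 h, against 1 and 1, both when only the groups compared were fitted, which leaves fewer samples, and when all probe sets were tested, which adds tests. Under both settings 0 of all genes or probe sets were called at either time. With arrays or experiments left out the counts ran from 5 to 10 after Dox in p300 siRNA cells, from 5 to 9 in NS cells, from 0 to 1 with the siRNA at 8 h, at 0 h and with both times together, and from 0 to 0 for the difference between responses.

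Sign changes occurred only in values that were not called, when arrays or experiments were left out. With both times together, the siRNA change ran from -0.00484 to 0.0699 for Crebbp, -0.0731 to 0.00753 for Ncoa3, -0.0225 to 0.0391 for Cited2, -0.0859 to 0.0531 for Kat2b and -0.0671 to 0.0339 for Kat5. For Crebbp it ran from -0.0490 to 0.10 at 8 h and -0.0142 to 0.0728 at 0 h. The difference between responses ran from -0.10 to 0.15 for Ep300 and -0.0401 to 0.25 for Kat2b. In each case the cause was not tested.

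Centring on the median of the genes tested, added after the data were seen, moved the median change of all genes after Dox to 0.145 in p300 siRNA cells and 0.139 in NS cells, against 0.0409 and 0.0362. Under it Kat7 changed by -1.11 and -1.06, Ep300 by -0.21 and -0.24, and Kat2b by 0.72 and 0.61 in p300 siRNA cells and NS cells. Of the 91 list genes 39 then fell and 13 rose in p300 siRNA cells and 35 fell and 12 rose in NS cells. List counts, and the called list genes with the largest changes, were followed under the alternatives. Of these values 2519 were classed as the same: a gene kept its direction and call, or a count was equal or within 1.5 times. In 98 a gene lost its call, and 97 counts moved by over 1.5 times or from or to 0. The choice of called genes with large changes favours calls that are kept. The number of arrays limits the precision of every value.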
